A study of Homo sapiens with 6 samples.

Results

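The DEAD and DEAH box RNA helicases are 51 of the 16834 genes in the table, chosen as every symbol made of DDX or DHX, a number and at most 1 further letter. Of these, 35 are DDX genes and 16 are DHX genes, and 3 other symbols that begin with DDX or DHX (2 antisense or divergent transcripts and 1 pseudogene) were left out by the rule. The members were described in 3 Flag-IPs and 3 HA-IPs of HEK293-T Flp-In cells, a human embryonic kidney line with a recombination site that took up a single copy of the ccTaggedRP construct. Both groups came from the same stable line and the same growth conditions, asynchronous, in medium with hygromycin B and with no synchronizing drug. The Flag-IPs collected ribosomes that carry Flag-RPL10a-hCdt, and the HA-IPs those that carry HA-RPL10a-hGem. Both tagged proteins are made from 1 bicistronic mRNA under the CAG promoter and differ in their degron, which the study built so that Flag-RPL10a-hCdt is lost from late S phase to M and HA-RPL10a-hGem from late G1 to early S. The comparison asks which mRNAs were more abundant on ribosomes with one tag than on ribosomes with the other. As a model it is limited to 1 line, to cells of all phases in every IP, and to bulk RNA, in which fewer cells that carry an mRNA and less of that mRNA per cell cannot be told apart. The samples include no input RNA and no IP from cells without the tags, and the groups used different antibodies. RNA held by an antibody or the beads without a tagged ribosome therefore cannot be told apart from RNA on tagged ribosomes. Nothing in the labels says that the replicates were separate cultures, so p-values measure only the spread between these samples, which may be technical.

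DEAD and DEAH box proteins are ATPases named after the letters of a motif in their helicase core. DEAD box proteins mostly pry apart short RNA duplexes or hold an RNA in place, while DEAH box proteins tend to move along a strand, and many of those drive single steps of splicing or ribosome assembly. Dividing cells rely on them throughout the life of an mRNA, from splicing and export to translation and decay, and in the nucleolus for making ribosomes.

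Of the 51 helicase genes, 16 were higher in the HA-IPs (31.4%, against 5.79% of all genes) and 2 were higher in the Flag-IPs (3.92%, against 7.1% of all genes), where limma gave an adjusted p no greater than 0.05. The remaining 33 did not pass the test. The differences were small. The called genes were between 13.0% and 24.2% higher in the HA-IPs, or 10.6% and 17.6% lower there. DHX9, DDX60 and DDX20 had the largest log2 fold changes, given throughout as HA-IP over Flag-IP (0.31, 0.31 and 0.29), and DDX49 (-0.28) and DDX39B (-0.16) were the 2 members called lower. Over all 51 members the median log2 fold change was 0.11, and 43 of them were above 0, while the median of all genes tested was -0.0049. Every HA-IP was above every Flag-IP for 25 members (49.0%, against 16.1% of all genes), and the opposite order held for 2 (against 16.1% of all genes).

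**Figure D1:**
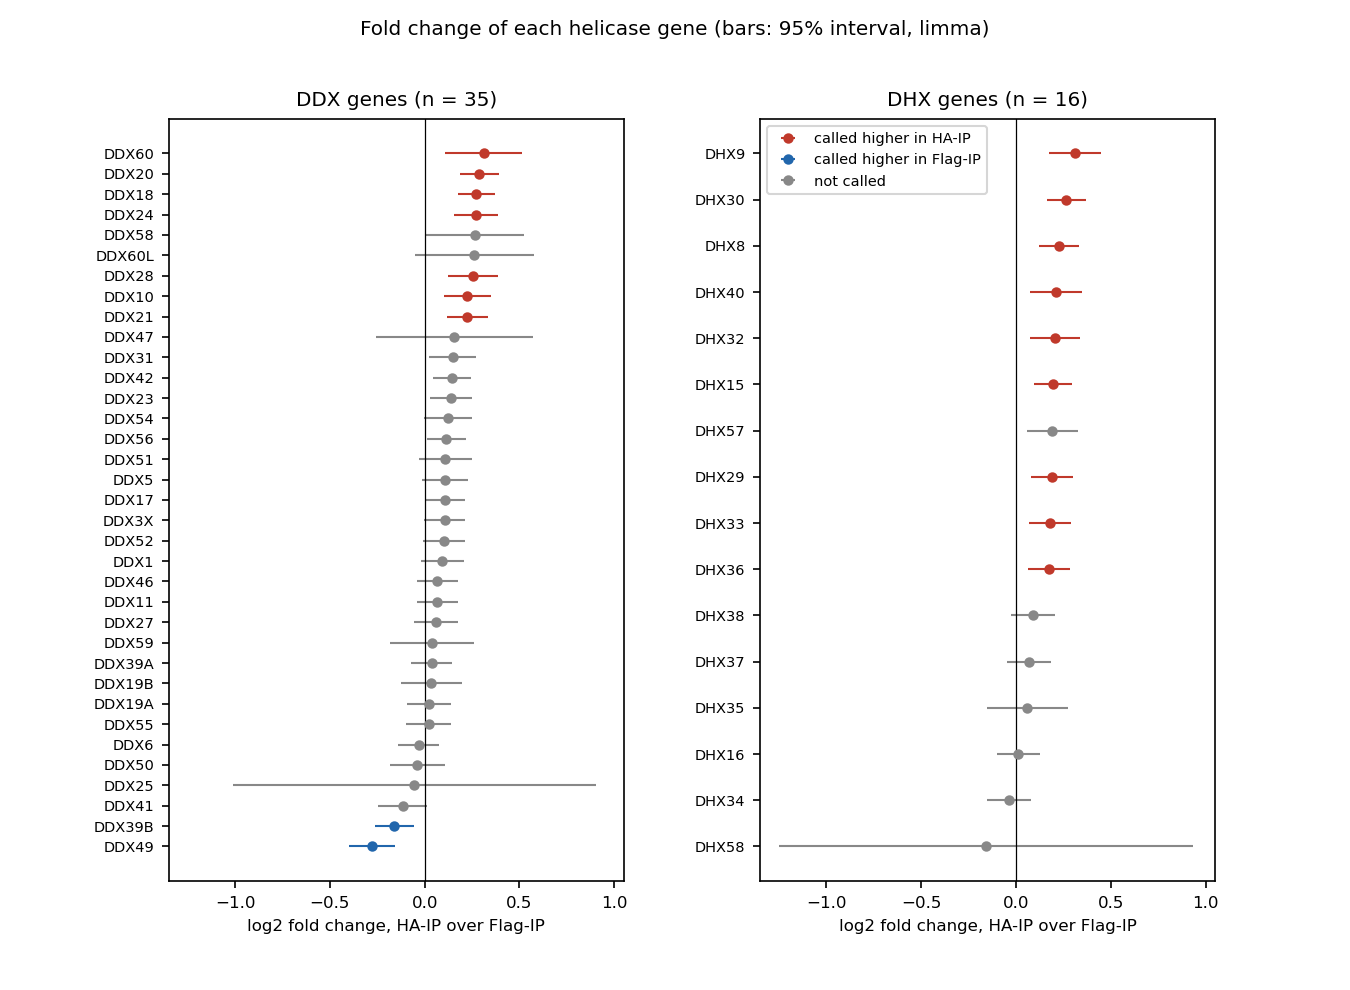
Log2 fold change (HA-IP over Flag-IP) for each helicase gene on the x axis, with DDX genes on the left and DHX genes on the right, points for the limma estimate from 3 libraries a group and bars for its 95% interval. Most points lie to the right of 0, with the 16 red genes called higher in the HA-IPs and only DDX49 and DDX39B, in blue, called higher in the Flag-IPs, while DDX25 and DHX58 have wide bars.

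Among the DDX genes 7 of 35 (20%) were called higher in the HA-IPs and 2 (5.71%) lower. Their median log2 fold change was 0.11. Among the DHX genes 9 of 16 (56.25%) passed as higher in the HA-IPs, with a median of 0.18. Limma called 0 DHX genes lower (0 also by edgeR and DESeq2, and 0 at an unadjusted p under 0.05). Across the whole table limma placed 5.79% of genes higher and 7.1% lower. Lower calls were thus no more frequent among DDX genes than in that background. The difference between the DDX and DHX shares was not tested, and the median level was 3385 normalized counts for DDX genes and 6250 for DHX genes. Helicase genes were highly expressed, with a median level of 3940 normalized counts against 473 for all genes, and calls were more frequent among highly expressed genes. At a mean no lower than 1000 normalized counts, a limit chosen after the data were seen, 42 members remained. The HA-IPs were higher for 15 of these (35.7%, against 14.4% of the 5959 genes above that limit) and the Flag-IPs for 2 (4.76%, against 7.42%), so that 17 were called in either direction (against 21.8%). The 15 were 6 of 28 DDX genes (21.4%) and 9 of 14 DHX genes (64.3%), and both genes called lower were DDX genes (7.14% of the 28). All 3 HA-IPs lay above all 3 Flag-IPs for 23 of the 42 (54.8%, against 31.8%), and all 3 Flag-IPs above the HA-IPs for 2 (against 14.6%). Count tests on the recovered reads called 14 members higher in HA-IP with edgeR (against 5.35% of all genes) and 17 with DESeq2 (against 6.2%), and each called the same 2 members in the Flag-IPs (against 7.31% with either tool).

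The number that passed depended on the settings. Without the variance trend limma called 0 members in either direction and 188 genes in all, and 19 members higher and 2 lower had an unadjusted p under 0.05. When the libraries were scaled to the same total, 8 members had higher calls in HA-IP (against 2.8% of all genes) and 2 in the Flag-IPs (against 9.36%). All genes then split into 471 higher and 1576 lower, compared with 975 higher and 1196 lower with the size factors of the authors. Leaving out Flag-IP 2, HA-IP 1, HA-IP 2 or HA-IP 3 left 3, 5, 6 and 6 members called higher in the HA-IPs, and leaving out Flag-IP 3 raised the number to 21. The share of all genes called higher moved with it, to 0.612%, 1.34%, 1.59% and 1.89%, and to 9.21% without Flag-IP 3. Without Flag-IP 1, 13 members were called higher (against 5.19% of all genes) and 1 lower (against 6.75%). DDX18, DDX20 and DHX30 passed whichever library was left out. DDX24 and DDX49 passed in 5 of the 6 cases, DHX9 in 4, and DHX32 in 0.

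The letters CCAAT, which the trimeric factor NF-Y binds in many promoters, were searched on both strands of 300-base windows around the RefSeq start of each gene (250 bases before to 50 after, build GRCh38.p14). A window was at hand for 46 of the 51 members, and those named without one are DDX18, DDX49, DDX52, DHX33 and DHX58. The letters stood in 19 of the 46 windows (41.3%), against 35.7% of all 27305 windows and 37.2% of the 4945 windows of genes whose mean reached 1000. They stood in 9 of the 14 windows of members called higher in the HA-IPs (64.3%) and in 10 of the 31 of members not called (32.3%), a difference that was not tested. The stretches of these 9 are shown because, of the motifs searched, this one stood in most of the called members. Each reads along the strand of its gene, with CCAAT or its reverse complement ATTGG in capitals and 10 bases on either side, and where a window has several matches the one nearest to the start is shown.
DDX20, chr1:111755836-111755860, plus strand: gggaaaactgCCAATaaagtttttc
DHX30, chr3:47802923-47802947, plus strand: gccgcgccccATTGGgccgggtgct
DDX24, chr14:94081276-94081300, minus strand: cgcgaggcagCCAATcaggtagctg
DHX9, chr1:182839249-182839273, plus strand: cgccccctccATTGGcgcgccctcg
DDX28, chr16:68023457-68023481, minus strand: ctcatggtccATTGGgtcaaggccc
DHX15, chr4:24584661-24584685, minus strand: aaaggtcggaCCAATgaggcagcgg
DDX10, chr11:108664994-108665018, plus strand: tcctgacgtcATTGGcgcgtgcccc
DHX29, chr5:55307710-55307734, minus strand: ctgaattcgaCCAATtgcgaggcag
DHX36, chr3:154324701-154324725, minus strand: accaaaagctATTGGctcacttgct
The capitals end between 25 bases (DHX29) and 234 bases (DDX28) before the RefSeq start, and 4 of the 9 read CCAAT and 5 read ATTGG. In GENCODE release 44 the stretches of DDX20 and DHX30 overlap an exon of a longer transcript of the same gene, that of DDX28 overlaps an exon of DUS2 on the opposite strand, and that of DHX9 lies in an intron of DHX9-AS1. The other 5 lie outside any annotated gene. Of the other letters searched on both strands, TTTGAA or TTCGAA (the cell cycle homology region, CHR) stood in 3 of the 14 windows of members called higher (DDX10, DDX20 and DDX21), in 5 of 46 members, in 16.6% of all windows and in 10.3% of the windows of genes whose mean reached 1000. TTTCGCG or TTTGGCG, 2 forms of the E2F site, stood in 0 of the 14, in 2 of the 46, in 3.22% of all windows and in 5.97% of those of genes whose mean reached 1000. No motif searched contains another, and a match is a run of letters, not a site shown to be bound.

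The level of the helicase mRNAs spanned more than 3 orders of magnitude per kilobase. DHX9 was the highest with a mean of 7548 normalized counts per kb of exon over the 6 libraries. DDX5 (3740), DDX54 (3048), DDX21 (2797) and DDX3X (2521) came next. This order depends on the annotation, because the exon bases join those of every annotated transcript of a gene. They came to 15836 for DDX3X, whose canonical transcript has 4635 bases, and to 5065 for DDX54, whose canonical transcript has 4377. At the other end, DHX58 and DDX25 had 2.98 and 0.837 per kb, a mean of about 10 normalized counts in a library, and a difference in either was not detectable at this depth. DDX60L, DDX47, DDX60 and DDX58 also had at most 25.5 per kb. For DDX47 and DDX58 the annotation limits the value, because 36.5% of the exon bases of DDX47 are shared with APOLD1 and 43.2% of those of DDX58 with another gene model on the same strand. Together the 51 genes took 1.23%, 1.23% and 1.26% of all normalized counts in Flag-IP 1, 2 and 3 and 1.33%, 1.31% and 1.35% in HA-IP 1, 2 and 3, so that the groups did not overlap. The DHX genes alone took 0.406% to 0.436% in the Flag-IPs and 0.464% to 0.471% in the HA-IPs, and the DDX genes 0.813% to 0.827% and 0.849% to 0.879%.

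**Figure D2:**
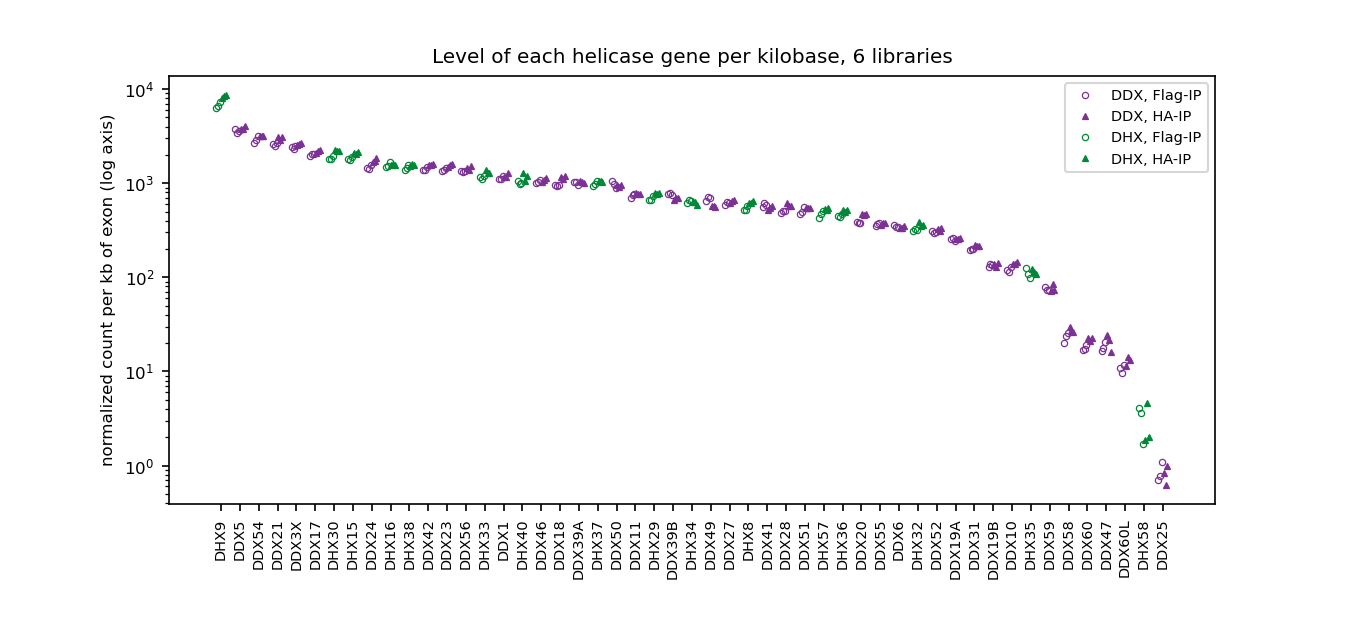
Normalized count per kilobase of exon (y axis, log scale) for each helicase gene, ordered by its mean, with open circles for the 3 Flag-IPs, filled triangles for the 3 HA-IPs, purple for DDX and green for DHX. DHX9 stands above all others at 7548 per kb on average, most members lie within 1 order of magnitude of each other, and 6 genes at the right end have at most 25.5.

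Gene positions given with identifiers are those of GENCODE release 44 on GRCh38. Each count by role is to be read against the 5.79% of all genes called higher and 7.1% called lower, or 14.4% and 7.42% of genes whose mean reached 1000, and shares of so few members were not tested. Splicing helicases were called higher in the HA-IPs in 3 of 10 cases (30%) and lower in none by limma (0 also by edgeR and DESeq2, and 0 at an unadjusted p under 0.05), with a median log2 fold change of 0.11. DDX20 (also Gemin3, ENSG00000064703, chr1:111754832-111775602, plus strand), a part of the SMN complex that builds the small nuclear ribonucleoproteins of the spliceosome, had 3431, 3343 and 3331 normalized counts in the 3 Flag-IPs, compared with 4172, 3999 and 4166 in the 3 HA-IPs. The groups were far apart compared with their spread, and the log2 fold change was 0.29 (SE 0.047, adjusted p = 0.0033 in limma). DHX15, which takes spent spliceosomes apart, had 14816, 14557 and 15467 in the Flag-IPs, compared with 17111, 16677 and 17528 in the HA-IPs. DHX8, which releases the finished mRNA from the spliceosome, had 5592, 5651 and 6095 in the Flag-IPs, compared with 6692, 6698 and 6892 in the HA-IPs. Neither gene overlapped between groups, and Flag-IP 3 was the Flag-IP nearest to the HA-IPs for both. Their log2 fold changes were 0.19 (SE 0.046, adjusted p in limma 0.020) and 0.23 (SE 0.049, adjusted p = 0.013). DDX42 (adjusted p = 0.064 in limma) and DDX23 (0.090) had every HA-IP above every Flag-IP and did not pass in limma. DDX42 had an adjusted p of 0.085 in edgeR and passed in DESeq2 with 0.048. DDX46, DHX16, DHX38 and DHX35, which act at the branch site or in remodelling the spliceosome, had log2 values between 0.01 and 0.09 and overlapping groups. DDX41 had -0.12 (adjusted p = 0.23).

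Of the 5 helicases of mRNA export, 0 were called higher in the HA-IPs by limma, edgeR and DESeq2, 0 had an unadjusted p under 0.05 in that direction, and 1 was called lower. DDX39B (also UAP56, ENSG00000198563, chr6:31530219-31542448, minus strand), which loads export factors onto spliced mRNA, had 5392, 5518 and 5247 normalized counts in the Flag-IPs, compared with 4673, 4927 and 4849 in the HA-IPs. All Flag-IPs lay above all HA-IPs, with a log2 fold change of -0.16 (SE 0.047, adjusted p = 0.044 in limma), and 29.7% of its exon bases are shared with a read-through gene model, ATP6V1G2-DDX39B. Its close relative DDX39A had 4001, 3941 and 3729 in the Flag-IPs, compared with 4054, 3983 and 3929 in the HA-IPs, which overlap. DDX19A and DDX19B, which strip proteins from mRNA at the nuclear pore, had log2 fold changes of 0.02 and 0.03. DDX25, a helicase of germ cells, was near 10 normalized counts everywhere.

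Of the 16 helicases of ribosome assembly, 5 were called higher in the HA-IPs (31.2%, compared with 5.79% of all genes) and 1 lower (6.25%, near the 7.1% of all genes), with a median log2 fold change of 0.12. DDX18 (ENSG00000088205, chr2:117814691-117832377, plus strand), which acts on the large subunit, had 7534, 7342 and 7434 normalized counts in the Flag-IPs, compared with 9048, 8699 and 9223 in the HA-IPs. DDX24, also a large subunit factor, had 12346, 12057 and 13278 in the Flag-IPs, compared with 14590, 14984 and 15932 in the HA-IPs. Both were separate between groups, with a log2 fold change of 0.27 each (SE 0.045 and 0.054, adjusted p = 0.0036 and 0.0086 in limma). DDX21, a nucleolar helicase that binds ribosomal RNA and its genes, had 23921, 23084 and 24755 in the Flag-IPs, compared with 28389, 26856 and 28614 in the HA-IPs. DDX10, a factor of the small subunit processome, had 2142, 2077 and 2322 in the Flag-IPs, compared with 2508, 2507 and 2626 in the HA-IPs. DHX33, which acts in transcription of the ribosomal RNA genes, had 6709, 6401 and 6950 in the Flag-IPs, compared with 7919, 7389 and 7390 in the HA-IPs. In these 3 genes the highest Flag-IP was also below the lowest HA-IP. Their log2 fold changes were 0.22 (SE 0.049), 0.23 (SE 0.057) and 0.18 (SE 0.051), with adjusted p = 0.014, 0.025 and 0.041 in limma.

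DDX49 (ENSG00000105671, chr19:18919705-18929189, plus strand), a small subunit factor, went the other way. It had 2138, 2361 and 2317 normalized counts in the Flag-IPs, compared with 1892, 1879 and 1839 in the HA-IPs, and the 3 HA-IPs lay close together below the lowest Flag-IP. The log2 fold change was -0.28 (SE 0.056, adjusted p = 0.0091 in limma). The other 10 did not pass, and ranged from -0.04 for DDX50 to 0.16 for DDX47. DDX54, the third highest member per kb of annotated exon, had 13693, 14684 and 16038 in the Flag-IPs, compared with 16030, 16277 and 15914 in the HA-IPs. Its Flag-IP 3 lay within the range of the HA-IPs, and its log2 fold change was 0.12 (adjusted p = 0.20 in limma). DDX31, DDX52 and DDX56 had every HA-IP above every Flag-IP with log2 values of 0.15, 0.10 and 0.11 (limma adjusted p of 0.11, 0.22 and 0.14).

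DHX9 (RNA helicase A, ENSG00000135829, chr1:182839347-182887982, plus strand), which unwinds structured RNA and RNA-DNA hybrids during transcription, had the largest difference in its group and the highest level of all. It had 37098, 38924 and 43247 normalized counts in the Flag-IPs, compared with 47225, 49643 and 50976 in the HA-IPs. The groups did not overlap, although Flag-IP 3 lay well above the other Flag-IPs, and the log2 fold change was 0.31 (SE 0.062, adjusted p = 0.0092 in limma). DDX5 (p68) and DDX17 (p72), cofactors of transcription and of microRNA processing by Drosha, did not pass. DDX5 had 35387, 31987 and 33189 in the Flag-IPs, compared with 35026, 35267 and 38067 in the HA-IPs, and DDX17 had 19597, 20400 and 20528 in the Flag-IPs, compared with 20897, 21985 and 22337 in the HA-IPs. The groups overlapped for DDX5 and not for DDX17, and both log2 fold changes were 0.11 (adjusted p = 0.24 and 0.17 in limma). For DDX5 the sign changed under quantile normalization, to -0.04.

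Helicases of translation, decay and RNA granules were called higher in the HA-IPs in 2 of 6 cases (33.3%, compared with 5.79% of all genes). DHX29, which helps the small ribosomal subunit through structured leaders of mRNAs, had 3232, 3262 and 3539 normalized counts in the Flag-IPs, compared with 3849, 3744 and 3850 in the HA-IPs. DHX36, which opens G-quadruplexes, had 4773, 4567 and 4947 in the Flag-IPs, compared with 5416, 5180 and 5544 in the HA-IPs. Neither overlapped between groups. Their log2 fold changes were 0.19 (SE 0.052, adjusted p in limma 0.033) and 0.18 (SE 0.050, adjusted p = 0.041). DDX3X, which supports translation of mRNAs with structured leaders, had 38791, 36935 and 39666 in the Flag-IPs, compared with 40764, 40945 and 42402 in the HA-IPs. Its groups were separate by a small gap, and its log2 fold change of 0.11 did not pass (95% interval -0.0023 to 0.21, adjusted p = 0.19 in limma) and became -0.02 under quantile normalization. DDX6, the core helicase of P-bodies, had 4090, 3917 and 3931 in the Flag-IPs, compared with 3794, 3830 and 4057 in the HA-IPs. These overlap, and the interval of its log2 fold change ran from -0.14 to 0.08. DDX1 and DHX34 had 0.09 and -0.04 with overlapping groups.

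Both helicases of mitochondrial RNA were called higher in the HA-IPs, a call made for 5.79% of all genes. DHX30 (ENSG00000132153, chr3:47802909-47850195, plus strand), needed for assembly of the mitochondrial ribosome, had 13898, 14115 and 14961 normalized counts in the Flag-IPs, compared with 17498, 17104 and 17024 in the HA-IPs. DDX28, which acts on the large subunit of the same ribosome, had 1116, 1168 and 1162 in the Flag-IPs, compared with 1442, 1339 and 1337 in the HA-IPs. Each group was tight and separate from the other, with log2 fold changes of 0.27 (SE 0.047, adjusted p = 0.0052 in limma) and 0.26 (SE 0.060, adjusted p = 0.018).

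Of the 4 antiviral helicases 1 was called higher in the HA-IPs (25%, compared with 5.79% of all genes). DDX60, an interferon-induced gene, had 294, 300 and 333 normalized counts in the Flag-IPs, compared with 394, 366 and 389 in the HA-IPs. The groups were separate, and its log2 fold change of 0.31 had an SE of 0.093 and an adjusted p of 0.049 in limma, and of 0.056 in edgeR and 0.078 in DESeq2. DDX60L, its neighbour on chromosome 4, had 131, 118 and 144 in the Flag-IPs, compared with 139, 172 and 161 in the HA-IPs, which overlap. DDX58 (RIG-I), a sensor of viral RNA, had a log2 fold change of 0.26 that did not pass (adjusted p = 0.17 in limma). Among the 4 less studied members, DHX32 and DHX40 were called. DHX32 had 1225, 1281 and 1242 in the Flag-IPs, compared with 1524, 1386 and 1416 in the HA-IPs, and 10.4% of its exon bases lie opposite BCCIP. DHX40 had 6165, 5833 and 5934 in the Flag-IPs, compared with 7506, 6275 and 7016 in the HA-IPs, with HA-IP 2 close to the highest Flag-IP. Both had a log2 fold change of 0.21 (SE 0.060 and 0.063, adjusted p = 0.044 and 0.049 in limma). DHX57 had 0.19 (adjusted p = 0.064 in limma, 0.072 in edgeR and 0.048 in DESeq2) and DDX59 0.04. DDX11, a DNA helicase of sister chromatid cohesion, had 5884, 6237 and 6483 in the Flag-IPs, compared with 6586, 6416 and 6466 in the HA-IPs, and its log2 fold change was 0.07 (adjusted p = 0.43).

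**Figure D3:**
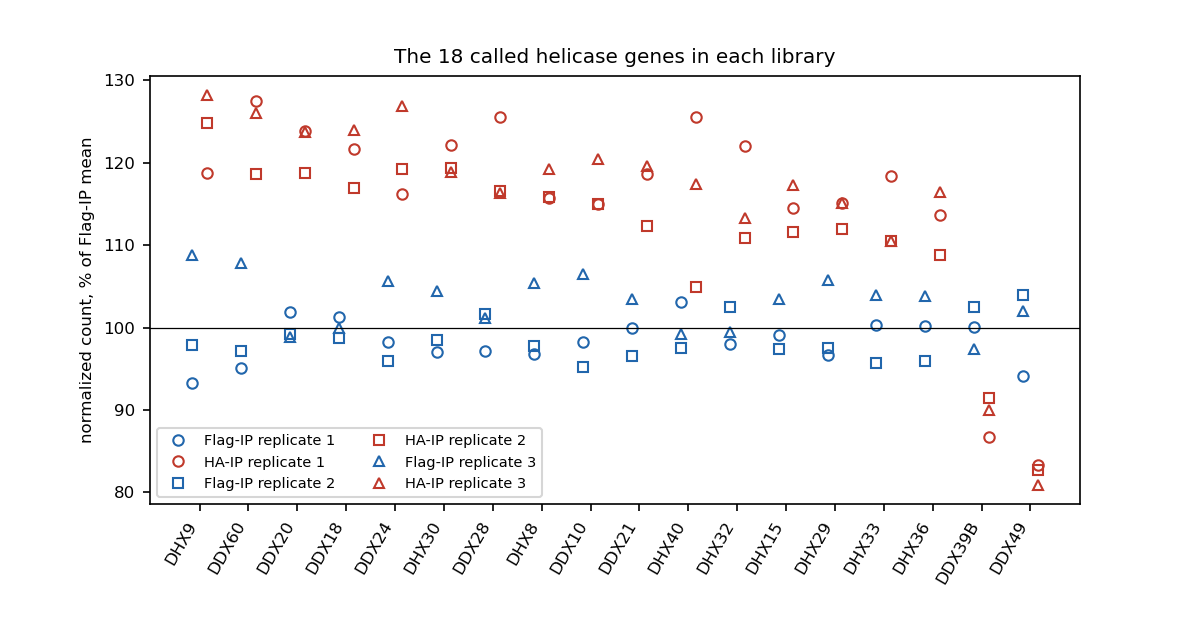
Normalized count of each of the 18 called helicase genes in each library as a percent of that gene's Flag-IP mean (y axis), with blue for Flag-IPs, red for HA-IPs and 1 marker shape for each replicate number. All red markers lie above the blue ones for the 16 genes from DHX9 to DHX36 and below them for DDX39B and DDX49, and the blue triangle of Flag-IP 3 is the highest blue marker in 11 of the 16.

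The spread within each group was shared by many members. Among the 16 genes called higher in the HA-IPs, Flag-IP 3 was the highest Flag-IP for 11 and HA-IP 2 the lowest HA-IP for 11. The median deviation of these 16 genes from their own mean over the 6 libraries, on the log2 scale, was -0.13 in Flag-IP 1, -0.15 in Flag-IP 2 and -0.05 in Flag-IP 3. It was 0.14 in HA-IP 1, 0.09 in HA-IP 2 and 0.14 in HA-IP 3. Flag-IP 3 therefore lay nearest to the HA-IPs, and the number of called members was highest when it was left out.

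A further fact moved with the groups. The libraries held 23174532 to 44134833 reads on the listed genes (284834 to 584872 of them on the helicases), and Pearson's r of log2 values over 13141 genes was 0.990 to 0.996 within groups and 0.966 to 0.991 between them. Genes of heart muscle, a tissue foreign to this line, were all called higher in the Flag-IPs, 25 of the 25 listed in the table, with a median log2 fold change of -4.17. They summed to 0.776%, 0.561% and 0.359% of normalized counts in Flag-IP 1, 2 and 3 and to 0.0170%, 0.0122% and 0.0751% in HA-IP 1, 2 and 3. The part of that RNA in the helicase differences was not tested. The epithelial markers EPCAM, CDH1, KRT8, KRT18 and KRT19 had between 602 and 11240 normalized counts in every library. Of 8 kidney markers LRP2 was high (3391 to 4663), PAX2, PAX8, CUBN and SLC12A1 had at most 131 in any library, and AQP2, UMOD and NPHS1 were not among the genes listed.

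Composition of the transcripts went along with the fold changes. Across the 51 members Pearson's r with the log2 fold change was -0.44 for GC content of the canonical transcript, 0.42 for the log2 of its length and 0.25 for the log2 of the level. The members are not independent, since they share the 6 libraries. Among members whose mean reached 1000 normalized counts, 10 of the 17 with a GC content in the lowest tertile of such genes (up to 43.8%) were called higher in HA-IP, compared with 20.3% of all genes in that tertile. The middle tertile held 3 of 12 (against 16.2%), and the highest (above 53.6%) 2 of 13 (against 6.65%). By length, 2 of 12 in the shortest tertile were called higher (against 9.12%), 9 of 23 in the middle (against 15.6%) and 4 of 7 in the longest (against 18.4%), while both members called lower, DDX39B and DDX49, were in the shortest. DHX30, DDX28 and DDX24 were called with a GC content of 58.9%, 55.4% and 49.3%.

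**Figure D4:**
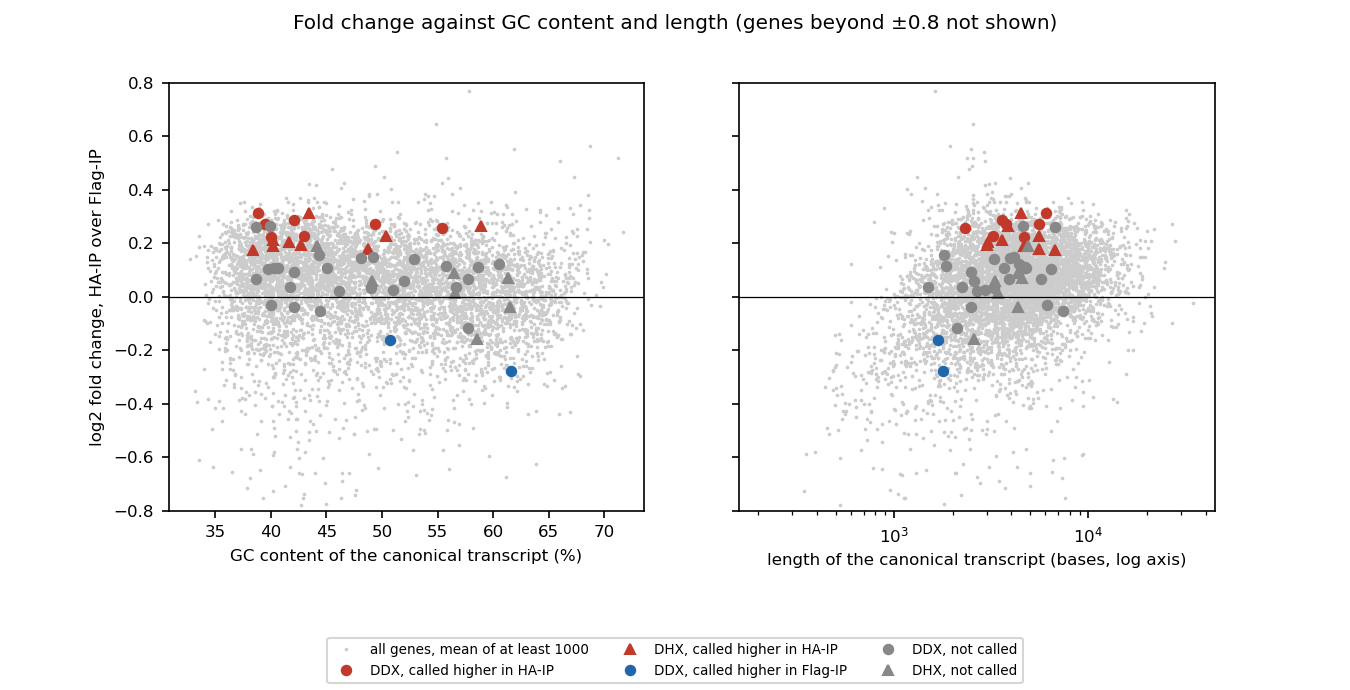
Log2 fold change, HA-IP over Flag-IP (y axis), against GC content (left) and length (right, log axis) of the canonical transcript, with all genes whose mean reached 1000 as light points and all helicase genes as large markers. Red markers of genes called higher are most frequent at a GC content below 44% and at lengths above 3000 bases, and both blue markers, DDX39B and DDX49, lie at the short end.

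After the trends with GC content and length were removed from each library, 11 members kept a call in favour of the HA-IPs (against 4.75% of the 16683 genes with an annotated transcript) and 1, DDX49, in the Flag-IPs (against 8.94%). All 12 were among the 18 called before. DHX29, DHX33, DHX36, DHX32, DDX60 and DDX39B then had adjusted p between 0.055 and 0.15 in limma. Their log2 fold changes kept their sign and were 0.14, 0.11, 0.11, 0.17, 0.25 and -0.13. The largest remaining log2 fold changes among those called were 0.26 for DHX9, 0.25 for DDX20, 0.24 for DDX28, DHX30 and DDX18, and -0.25 for DDX49.

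Close relatives were compared within each library, as the difference of the log2 of their normalized counts, which cancels the scaling of a library. Over 7 pairs an exact two-sided permutation test of 3 against 3 libraries cannot go below p = 0.1. DDX21 and DDX50 are neighbours on chromosome 10 (68956135-68985068 and 68901286-68946847, GRCh38) and both nucleolar. DDX21 exceeded DDX50 by 3.08, 3.14 and 3.39 in the Flag-IPs and by 3.47, 3.47 and 3.46 in the HA-IPs. The difference grew by 0.26 and the groups did not overlap (exact permutation p = 0.1, the smallest possible, adjusted over the 7 pairs 0.175). DDX39A minus DDX39B was -0.43, -0.49 and -0.49 in the Flag-IPs, compared with -0.21, -0.31 and -0.30 in the HA-IPs, again without overlap and with the same p. In contrast DDX5 minus DDX17 had a mean of 0.73 in both groups (exact permutation p = 1). DDX19A minus DDX19B had 1.72 and 1.71 (exact permutation p = 0.9), and DDX60 minus DDX60L 1.23 and 1.28 (exact permutation p = 0.8). With 3 libraries a group such a p does not show that these pairs moved alike. Reads shared between relatives were assigned by the authors' counting, and DDX19A and DDX19B also share 23.9% and 16.0% of their exon bases with a gene model that spans both.

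**Figure D5:**
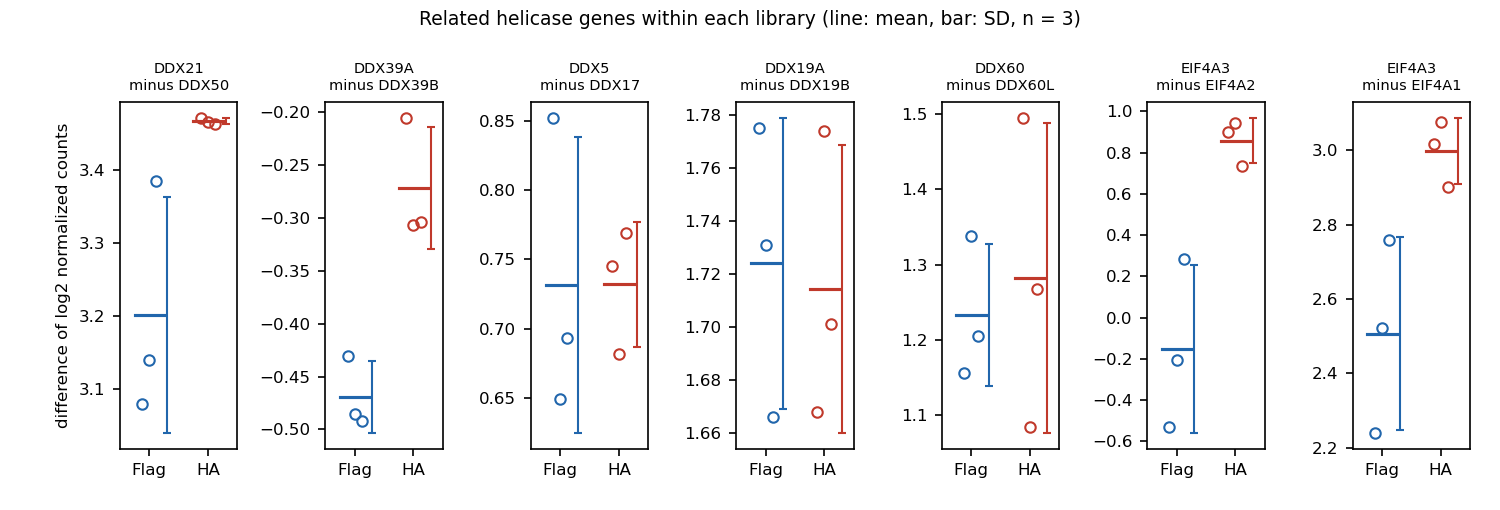
Difference of the log2 normalized counts of related helicase genes within each library (y axis, scaled separately in each panel) for 3 Flag-IPs in blue and 3 HA-IPs in red, with lines for the mean and bars for the SD. The groups are separate for DDX21 minus DDX50, DDX39A minus DDX39B and both pairs with EIF4A3, and overlap for DDX5 minus DDX17, DDX19A minus DDX19B and DDX60 minus DDX60L.

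Helicases of the same superfamily under other names were counted as well. Of the 20 such genes that the table lists, 10 were called higher in the HA-IPs (50%, compared with 5.79% of all genes and 14.4% of those whose mean reached 1000) and 1 lower (5%, compared with 7.1% and 7.42%), with a median log2 fold change of 0.20. The eIF4A genes, DEAD box proteins by sequence, diverged. EIF4A3, the anchor of the exon junction complex, had 7086, 7630 and 8972 normalized counts in the Flag-IPs, compared with 11222, 11299 and 10610 in the HA-IPs, whereas EIF4A2, a translation initiation factor, had 10222, 8811 and 7374 in the Flag-IPs, compared with 6016, 5875 and 6382 in the HA-IPs. Neither overlapped between groups, and the log2 fold changes were 0.49 (SE 0.075, adjusted p in limma 0.0024) and -0.52 (SE 0.093, adjusted p = 0.0056). EIF4A1 had 1500, 1328 and 1326 in the Flag-IPs, compared with 1385, 1339 and 1420 in the HA-IPs with no difference detected (adjusted p = 0.99), and it shares 42.1% and 28.2% of its exon bases with 2 other gene models, which limits its value. The difference EIF4A3 minus EIF4A2 was larger by 1.01 in the HA-IPs and EIF4A3 minus EIF4A1 by 0.49, each without overlap (exact permutation p = 0.1). Others called higher were UPF1 (0.31), which drives nonsense-mediated decay, ASCC3 (0.30), which splits stalled ribosomes, YTHDC2 (0.28), the intron-binding AQR (0.25), the nuclear exosome helicase MTREX (0.23), SNRNP200 (0.22), which unwinds the U4 and U6 RNAs, MOV10 (0.22) and the exosome helicase SKIV2L (0.20).

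Known partners of the helicases were counted in the same way. Among 23 G-patch proteins, which switch on DEAH box helicases, 3 passed in favour of the HA-IPs. These were NKRF (0.34), SON (0.22) and RBM17 (0.21, with overlapping groups). Their share of 13.0% lay above the 5.79% of the whole table and near the 14.4% of genes whose mean reached 1000. The 1 lower call was GPATCH4 (-0.25), a share of 4.35%. Lower calls made up 7.1% of the whole table and 7.42% of genes whose mean reached 1000. The median log2 fold change of this list was 0.10. A further list held MIF4G proteins, factors of the exon junction and export complexes, and other partners of DEAD box helicases such as EDC3, GEMIN4 and EIF4B. Of its 29 genes, 3 were called higher (10.3%, against 5.79% and below that same 14.4%). These were NUP214 (0.21), NCBP1 (0.20) and THOC2 (0.16). EIF4G2 (-0.37) was the 1 called lower (3.45%, against 7.1% and 7.42%), and the median was 0.12. Some genes of both lists had a mean below 1000, so the shares at that limit are not of like genes. Whether these shares differ from that of the helicases was not tested.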

How the data were processed

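RNA of 3 Flag-IPs and 3 HA-IPs was sequenced after poly(A) selection. The authors used Trimmomatic 0.36 for trimming, STAR 2.5.2b for mapping to GRCh38 and, per the submitters' processing notes, featureCounts of Subread 1.5.2 for counting (strand setting not given in the sources used here). They left out genes with few reads and deposited 1 table, whose signal per library is a normalized count, the read count divided by a size factor. Its deposited log2 fold change and adjusted p-value come from the authors' own DESeq2 comparison (listed as 3.16) and were not used. All values were whole multiples of 1 read (100%, largest deviation 6.4e-05 of a read), and the recovered reads served edgeR 4.0.16 (2131 genes called) and DESeq2 1.42.0 (2274).

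Log2(normalized count + 1) of all 16834 genes was fitted with limma 3.58.1 in R 4.3.3 (group only, variance trend, two-sided, Benjamini-Hochberg over all genes), which called 2171 (12.9%). In simulated data with 200 changed genes among 16567, limma recovered 51 of 67 at a log2 fold change of 0.5, 66 of 67 at 1 and 66 of 66 at 2, with 13 false calls. No smaller change was simulated, and the largest log2 fold change of a called member was 0.31 (DHX9). Recovery at the size of the member differences is therefore not known. Simulated counts were drawn independently, without the spread that many genes share in these data. GENCODE release 44 held 16683 genes (99.1%), and GC and length trends were fitted with splines of 5 degrees of freedom (MASS 7.3.60.0.1). Pairs were tested with scipy 1.17.1, and plots made with matplotlib 3.10.9 in Python 3.11.15. The alternatives were other pseudocounts, filters, scalings, tools and thresholds, the replicate number as a block, and each library left out.

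The members, roles and lists were chosen with earlier results of these data known. Genes named are every called member, the 5 highest per kb, a set of well studied members and their relatives, and called genes of each list. Other members named, the marker genes and the limit of 1000 were chosen after their values were seen. One called gene of the list of helicases under other names is counted and not reported by name here.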

Additional observations from a re-analysis of the deposited data

How the results depend on the processing

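Of the 51 helicase genes, 16 were called higher and 2 lower in the HA-IPs. Pseudocounts of 0.1 and 10, a mean of at least 50 and edgeR called 14 or 15 higher, all among the 16. DESeq2 called 17, of which 15 were among the 16 and the others were DDX42 and DHX57. Each of these settings called the same 2 lower. In the order given, the shares of all genes tested were 5.67%, 5.95%, 7.49%, 5.35% and 6.2% higher. The shares lower were 6.92%, 7.26%, 6.94%, 7.31% and 7.31%. Limma without the variance trend called 188 genes in all (0.0356% of all genes higher, 1.08% lower) and 0 and 0 members (19 and 2 at an unadjusted p under 0.05). An adjusted p of at most 0.01 left 704 genes, 5 members higher and 1 lower. The same total per library gave 8 higher (against 2.8% of all genes), 2 lower (against 9.36%) and a median log2 fold change of 0.057. Quantile normalization gave 10 higher (against 4.18%) and 2 lower (against 5.96%). The same upper quartile gave 16 higher (against 5.83%) and 1 lower (against 7.02%). Removal of GC and length trends gave 11 higher (against 4.75%) and 1 lower (against 8.94%). With each library left out in turn, the genes called in all ran from 620 (without Flag-IP 2) to 3059 (without Flag-IP 3), the members called higher from 3 to 21, those called lower from 0 to 2 and the median from 0.10 to 0.14. The replicate block gave 12 members higher (4.47% of all genes) and 1 lower (5.41%). Whether same-numbered samples were paired is not stated. Deviations of same-numbered libraries from their group means correlated with r of -0.16, 0.03 and -0.31 over 13141 genes, and some differently numbered pairs correlated more. These values cannot settle it, because deviations from a mean of so few libraries depend on each other. Signs reversed only for genes that were not called, before or after. With the same total the reversed members were DDX19A (-0.028), DDX19B (-0.019), DDX39A (-0.016), DDX55 (-0.031), DDX59 (-0.016) and DHX16 (-0.040). With the same upper quartile EIF4A1 reversed (0.0018). With quantile normalization they were DDX39A (-0.0086), DDX3X (-0.018), DDX5 (-0.039), DDX46 (-0.013), DHX16 (-0.048), DDX25 (0.24), DHX58 (0.23) and EIF4A1 (0.0099), and with GC and length trends removed DDX19A (-0.017), DDX19B (-0.00093), DHX16 (-0.013) and EIF4A1 (0.024). With a library left out, the genes that crossed 0 were DDX50 (-0.11 to 0.022), EIF4A1 (-0.031 to 0.058), DDX19A (-0.0053 to 0.049), DDX25 (-0.19 to 0.12), DDX55 (-0.0089 to 0.047), DDX59 (-0.044 to 0.088), DHX16 (-0.025 to 0.058), DHX35 (-0.020 to 0.15) and DHX58 (-0.55 to 0.066). The cause was not tested. Depth limits the members of low level: DDX25 and DHX58 had about 10 normalized counts, and DDX47, DDX60L and DDX58 had an SE of 0.19, 0.14 and 0.12.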
